A study of Mus musculus with 22 samples.

Results

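Snora64 and Snora78 are small nucleolar RNAs (snoRNAs) whose genes lie next to each other around the start of the mouse ribosomal protein gene Rps2. Their rows were found by RefSeq transcript ID, without version and probe offset, and are 2 of the 72 features measured. Of these features, 34 matched a mouse symbol in the RefSeq table of assembly GRCm38.p6. Levels were read in 22 samples by NanoString nCounter, which hybridises coloured barcode probes to RNA and counts single molecules with no amplification step, using a custom set for H/ACA snoRNAs. The values are called normalized counts here; the method of normalization is stated in none of the labels or headers.

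The samples form 7 groups, all cultured at the same temperature and CO2 level. Spermatogonial stem cells (SSC, n = 4) are the testis cells that renew themselves and give rise to sperm, and the design text calls them primary. Cardiomyocytes at day 16 (n = 3) were derived through embryoid bodies from embryonic stem cells (ESCs) and selected with puromycin, and ESCs at day 0 (n = 3) are the aMHC-puro ESCs of that experiment. In such a line the promoter of alpha myosin heavy chain, active in heart muscle cells, drives puromycin resistance. ESC set B and ESC set A (n = 3 each) come from a retinoic acid experiment of 6 days. The fields of the labels contradict each other on which set was treated, so set B is given against set A with no direction of treatment. RAW264.7 (n = 3) is a macrophage line and NIH3T3 (n = 3) a fibroblast line. The ESC line named in the design text is E14Tg2a, and each of these lines is a single line. Whether replicates came from different cultures or animals is not labelled. The p-values therefore reflect only how much these samples vary, and that variation may be technical. The descriptions of SSC samples 2, 3 and 4 share a number whose meaning is not given. The table holds snoRNAs and no cell type markers, so the labelled cell types could not be checked against markers.

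H/ACA snoRNAs assemble with dyskerin and its partner proteins and guide the conversion of uridine to pseudouridine, mostly in ribosomal RNA. In mammals most of them are not transcribed on their own. They are cut out of the introns of host genes, often genes for ribosomal proteins, translation factors or non-coding snoRNA host genes (Snhg). Rps2 encodes a protein of the small ribosomal subunit, and the human counterpart of Snora64 is known as a guide for 28S ribosomal RNA. Snhg9 is a non-coding host gene that starts beside Rps2. Snora64 and Snora78 are therefore a pair whose levels can be set beside each other in every sample.

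In the RefSeq table Snora64 lies 726 to 842 bases after the Rps2 start site, within the gene. Snora78 lies 231 to 387 bases before that start site, within Snhg9, which runs the other way. The table's widest span of Rps2 begins 1942 bases before the start site, and Snora78 lies within Rps2 only by that span. The label that gives both snoRNAs to Rps2 therefore holds for Snora64, while Snora78 lies in 2 annotated genes. The start sites of Snhg9 and Rps2 are 98 bases apart on opposite strands. The strands of the 2 snoRNAs were not read here.

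**Figure D1:**
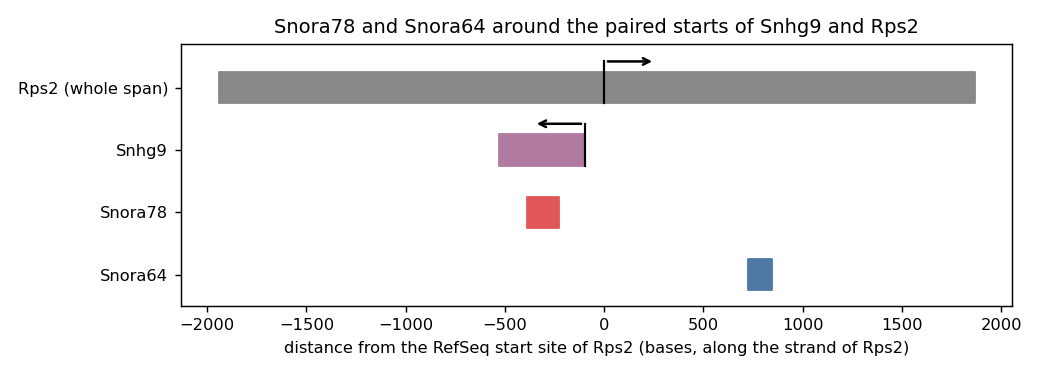
Map of the locus in bases from the RefSeq start site of Rps2, positive along the Rps2 strand; bars are annotated spans and arrows the 2 start sites with their direction. Snora78 sits inside Snhg9 at 231 to 387 bases before the Rps2 start, and Snora64 at 726 to 842 bases after it.

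Both promoter windows are shown because the snoRNAs lie to either side of these divergent starts. They are RefSeq windows of build GRCm38.p6, from 250 bases before to 50 bases after each start, written 5′ to 3′ along the strand of the gene: chr17:24719813-24720112 on the plus strand for Rps2 and chr17:24719916-24720215 on the minus strand for Snhg9. Capitals mark matches to the motifs searched on both strands, which were CCGGAAG, the core of ETS family sites, then TATAAA, the TATA box, and lastly CACGTG, an E-box.
Rps2: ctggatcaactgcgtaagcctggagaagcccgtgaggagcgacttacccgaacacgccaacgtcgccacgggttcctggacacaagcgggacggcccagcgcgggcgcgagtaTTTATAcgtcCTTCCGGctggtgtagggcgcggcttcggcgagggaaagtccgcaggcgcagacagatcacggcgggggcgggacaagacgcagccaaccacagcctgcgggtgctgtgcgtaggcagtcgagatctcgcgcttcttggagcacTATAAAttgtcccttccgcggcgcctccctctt
Snhg9: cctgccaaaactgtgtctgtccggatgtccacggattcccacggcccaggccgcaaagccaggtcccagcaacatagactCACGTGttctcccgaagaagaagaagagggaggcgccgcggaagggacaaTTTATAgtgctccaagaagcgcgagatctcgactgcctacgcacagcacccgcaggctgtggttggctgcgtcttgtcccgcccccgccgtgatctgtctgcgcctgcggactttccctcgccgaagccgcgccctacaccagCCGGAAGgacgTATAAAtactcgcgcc
The windows share 197 bases, identical as reverse complements. The single CCGGAAG match and both TATAAA matches lie in the shared stretch and so appear in both windows, as TTTATA or CTTCCGG where they are on the opposite strand. CCGGAAG lies 127 to 121 bases before the Rps2 start on the opposite strand, and 23 to 29 bases after the Snhg9 start on the strand of Snhg9. TATAAA lies on the gene's own strand only after the start, 17 to 22 bases for Rps2 and 34 to 39 for Snhg9. On the opposite strand it lies 137 to 132 bases before the Rps2 start and 120 to 115 before the Snhg9 start. CACGTG was found in the Snhg9 window alone, 170 to 165 bases before its start. Of all 32851 promoter windows of this length in the table, 8.86% hold CCGGAAG, 13.6% TATAAA and 7.15% CACGTG. A run of C or T over the first 5 bases from the start, a mark of genes for the translation machinery, was found in 4.44% of windows and in neither of these 2, whose tabulated starts read CGCGC for Rps2 and GCCGA for Snhg9. Only the tabulated start was searched, so a run at any other start would have been missed. These matches describe letters in the windows and are not evidence of binding.

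The 72 features summed to between 1045169 and 1668320 normalized counts in a sample. Within every sample 100% of values were whole multiples of 1 step between 0.900 and 1.22 (tolerance 0.02), so each sample carries 1 factor. The lowest member value corresponds to 1736 whole counts, a counting error of 2.40%, so replicate spread and not counting sets the precision below. Replicate 1 of set B and replicate 1 of the cardiomyocytes stood apart from their own groups: 19 and 15 of 67 features were more than 2-fold away from the mean of the other replicates. Replicate 2 of the cardiomyocytes had 13 such features and replicate 4 of set B 11, against at most 4 in each of the other 18 samples. Comparisons of the members in these groups are given with and without replicate 1, except for the ratio in the order of 7 groups. Counts by class of host gene are given with all samples only. Another 5 features are blank in SSC, RAW264.7 and NIH3T3 and filled in the 12 samples of the other groups. ESCs at day 0 thus lie in a different part of the table from the cell types they are set against below, and the part of the table cannot be told apart from those differences.

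Snora64 was high in SSC and in ESCs and low in both somatic lines. It had 18574, 18585, 25991 and 23337 normalized counts in the 4 SSC samples. The cardiomyocytes had 14371, 6887 and 6576 normalized counts, against 16059, 16637 and 16224 in ESCs at day 0. Each cardiomyocyte sample was below each day 0 sample, a lack of overlap that 52.8% of features showed, and the day 0 samples lay closest together. ESC set B had 28866, 8099 and 11971 normalized counts, against 10696, 17020 and 12171 in set A. The highest value of the series is thus the replicate of set B that stood apart. RAW264.7 had 5348, 3224 and 2717 normalized counts, against 3766, 3739 and 4323 in NIH3T3. The 6 samples of these 2 lines were the 6 lowest of all 22, and their groups overlapped each other. Mean levels were 21622 ± 3676 in SSC (SD, n = 4), 9278 ± 4414 in cardiomyocytes, 16307 ± 297 in ESCs at day 0, 16312 ± 11043 in set B, 13296 ± 3309 in set A, 3763 ± 1396 in RAW264.7 and 3943 ± 330 in NIH3T3 (SD, n = 3 each). Over all 22 samples Snora64 spanned 10.6-fold, took 0.193% to 2.23% of the sample total and ranked 14th to 52nd of 67 features.

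Snora78 moved over a narrower range and was low in RAW264.7. It had 6607, 3824, 4755 and 3399 normalized counts in SSC. The cardiomyocytes had 3552, 2866 and 3678 normalized counts, against 4887, 3057 and 3219 in ESCs at day 0. Values in set B were 3559, 3799 and 5131, against 3553, 3199 and 3594 in set A. Among these 5 groups each overlapped all the others. RAW264.7 had 2050, 2082 and 1679 normalized counts, against 4665, 2952 and 3712 in NIH3T3. The 3 RAW264.7 samples were the 3 lowest of the series, while NIH3T3 lay among the stem cell groups. Means were 4646 ± 1424 in SSC (SD, n = 4), 3365 ± 437 in cardiomyocytes, 3721 ± 1013 in ESCs at day 0, 4163 ± 847 in set B, 3448 ± 217 in set A, 1937 ± 224 in RAW264.7 and 3776 ± 858 in NIH3T3 (SD, n = 3 each). Over 22 samples Snora78 spanned 3.94-fold, took 0.120% to 0.503% of the total and ranked 45th to 59th of 67 features. As in any bulk measurement, fewer cells with a snoRNA and less of it per cell cannot be told apart.

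**Figure D2:**
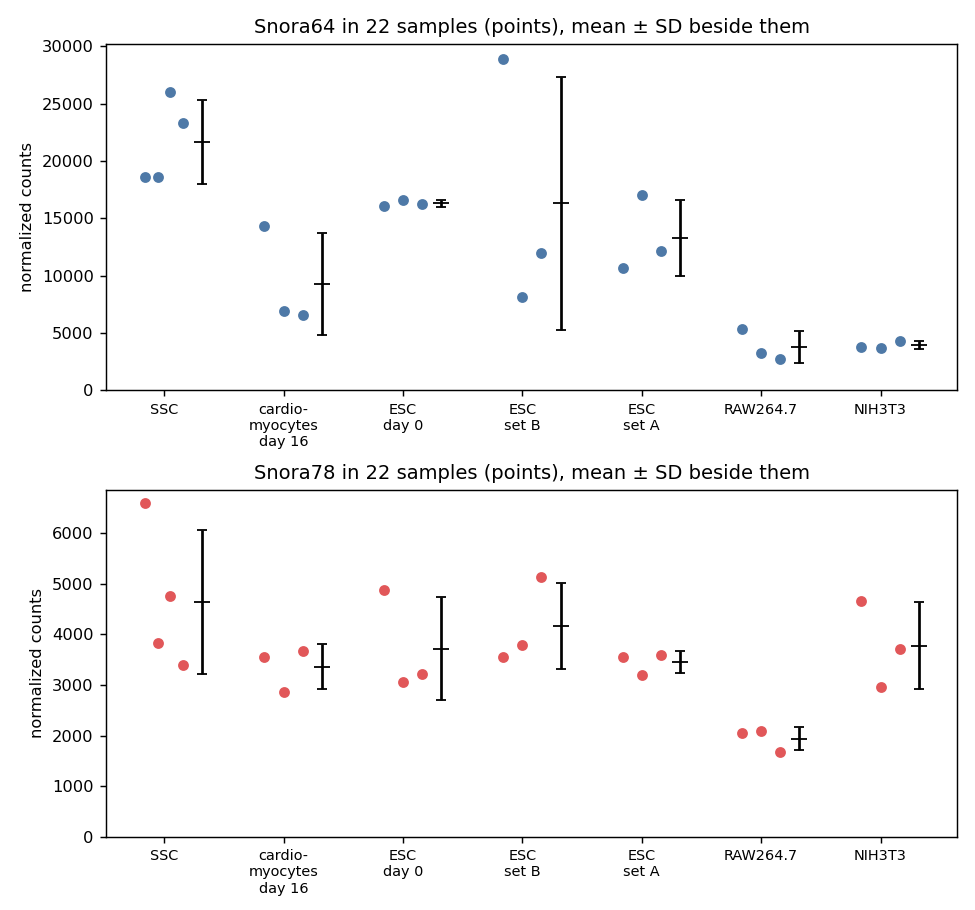
Normalized counts (vertical axis, from 0) of Snora64 (upper panel) and Snora78 (lower panel) in each sample by group, with bars for mean ± SD (n = 4 SSC, n = 3 in other groups). Snora64 is between 2717 and 5348 in RAW264.7 and NIH3T3 and at or above 6576 elsewhere; Snora78 is at or below 2082 in RAW264.7 alone.

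The ratio of Snora64 to Snora78 is free of any factor that scales a whole sample. It sets the counts of 2 different probes against each other, so only its changes between samples can be read, not its size. In SSC the ratio was 2.81, 4.86, 5.47 and 6.87. The cardiomyocytes had ratios of 4.05, 2.40 and 1.79, against 3.29, 5.44 and 5.04 in ESCs at day 0. In set B it was 8.11, 2.13 and 2.33, against 3.01, 5.32 and 3.39 in set A, so set B holds the widest spread of any group. RAW264.7 had ratios of 2.61, 1.55 and 1.62, against 0.807, 1.27 and 1.16 in NIH3T3. All 3 NIH3T3 samples were below every other sample of the series. Mean ratios were 5.00 ± 1.68 in SSC (SD, n = 4), 2.75 ± 1.17 in cardiomyocytes, 4.59 ± 1.15 in ESCs at day 0, 4.19 ± 3.40 in set B, 3.91 ± 1.24 in set A, 1.93 ± 0.593 in RAW264.7 and 1.08 ± 0.241 in NIH3T3 (SD, n = 3 each). Over all 22 samples the ratio ran from 0.807 to 8.11.

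**Figure D3:**
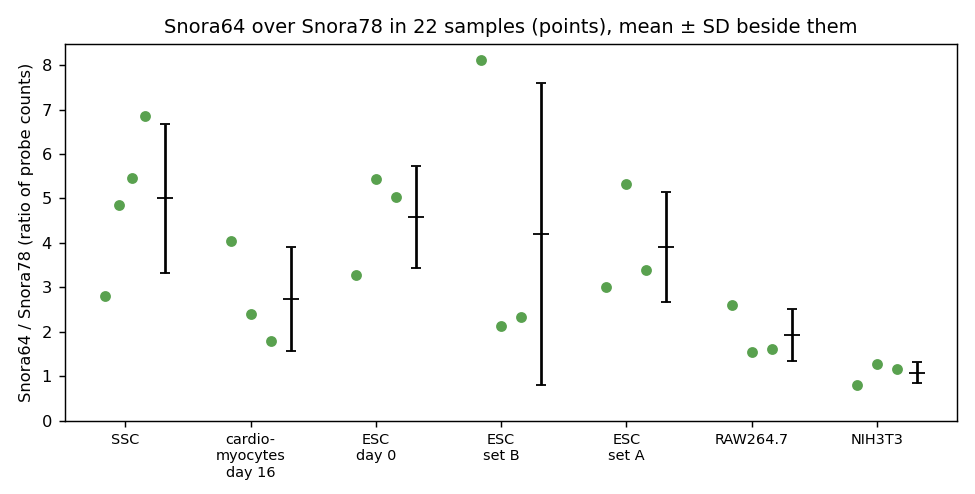
Ratio of Snora64 to Snora78 probe counts (vertical axis, from 0) in each of the 22 samples by group, with bars for mean ± SD (n = 4 SSC, n = 3 in other groups). The 3 NIH3T3 samples, at 0.807 to 1.27, are the lowest, and 1 sample of set B, at 8.11, is the highest.

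The first comparison asked how the pair differs between 4 unrelated cell types, namely SSC, ESCs at day 0, RAW264.7 and NIH3T3. Both members differed across them by limma's moderated F-test on log2(normalized counts + 1), with Benjamini-Hochberg adjustment over 67 features. Of all features tested, 91% were called at an adjusted p under 0.05, so a call by itself does not set the members apart. The size of the range does differ between them. Group means of Snora64 spanned 5.93-fold from RAW264.7 to SSC, the second widest range of the 67 features (adjusted p = 9.31e-09). Snora78 spanned 2.33-fold between the same groups and came in place 27 (adjusted p = 0.00108), 0.18 above the median range on the log2 scale. Over all 7 groups the ranges of Snora64 and Snora78 were the same and came in places 7 and 42 of 67. Their ratio spanned 4.49-fold, between NIH3T3 and SSC, with p = 0.000564 in an exact permutation F-test over all 1201200 arrangements of the 13 samples. In the limma fit on log2 ratios to Snora78 the adjusted p was 2.35e-05, where 95.5% of 66 ratios were called.

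In the pairs of cell types Snora64 separated the stem cells from both lines. It was 5.44-fold higher in SSC than in NIH3T3 (log2 difference 2.44 ± 0.20 SE, adjusted p = 6.21e-08 by limma), where 74.6% of features were called. Against RAW264.7 the level in SSC was up 5.93-fold (log2 difference 2.57 ± 0.20 SE, adjusted p = 3.42e-08, with 62.7% of features called). Snora64 showed the largest rise of all 67 features in both of these comparisons. ESCs at day 0 were 4.14-fold above NIH3T3 (log2 difference 2.05 ± 0.21 SE, adjusted p = 1.55e-06, 38.8% called) and 4.52-fold above RAW264.7 (2.18 ± 0.21 SE, adjusted p = 7.08e-07, 46.3% called). It came second of 67 features in the first and at the top in the second of these. RAW264.7 and NIH3T3 did not differ beyond their spread in Snora64 (log2 difference -0.13, 95% interval -0.57 to 0.32, adjusted p = 0.703, 53.7% called). An interval of that width does not show that the 2 lines are alike. Without replicate 3 of RAW264.7 the sign turned (0.078).

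Between SSC and ESCs at day 0, Snora64 did not pass the threshold. Its SSC samples all lay above the day 0 samples, as 65.7% of features had groups that did not overlap, and 70.1% were called. The log2 difference was 0.39 ± 0.20 SE (1.31-fold, adjusted p = 0.0857 by limma). It passed once samples were centred on their median (0.62, adjusted p = 0.00882) or mean (0.45, 0.0329), taken as shares of the total (0.77, 0.00563) or quantile normalized (0.65, 0.0111), and also without replicate 1 of RAW264.7 (0.39, 0.023), which enters through the shared variance. The call thus depends on the scaling of samples, and the deposited values hold no control RNA that could settle it.

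Snora78 followed another division, with RAW264.7 apart from the rest. SSC were 2.33-fold above RAW264.7 (log2 difference 1.22 ± 0.23 SE, adjusted p = 0.000241 by limma) and ESCs at day 0 were 1.89-fold above it (0.92 ± 0.24 SE, adjusted p = 0.00584). RAW264.7 was 1.92-fold below NIH3T3 (log2 difference -0.94 ± 0.24 SE, adjusted p = 0.00401). Among the 67 features this was the largest fall in RAW264.7 against NIH3T3, in a comparison where the median feature was 0.34 higher in RAW264.7 and 11.9% of features were called lower. SSC and NIH3T3 did not differ beyond their spread in Snora78 (0.28, 95% interval -0.21 to 0.76, adjusted p = 0.28). For ESCs at day 0 against NIH3T3 the difference was -0.029 (95% interval -0.55 to 0.49, adjusted p = 0.945), and for SSC against ESCs at day 0 it was 0.31 (95% interval -0.18 to 0.79, adjusted p = 0.242). The last of these passed when values were taken as shares of the sample total (0.69, adjusted p = 0.00865).

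The ratio was higher in SSC and in ESCs at day 0 than in either line. It was 4.49-fold higher in SSC than in NIH3T3 (log2 difference 2.17 ± 0.31 SE, adjusted p = 3.06e-05 by limma on ratios to Snora78, 54.5% of 66 ratios called). For ESCs at day 0 the Snora64 to Snora78 ratio was 4.23-fold above NIH3T3 (2.08 ± 0.33 SE, adjusted p = 0.000251), where 15.2% of ratios were called. Against RAW264.7 the ratio was 2.55-fold higher in SSC (1.35 ± 0.31 SE, adjusted p = 0.000844, 81.8% called) and 2.40-fold higher in ESCs at day 0 (1.26 ± 0.33 SE, adjusted p = 0.00362, 77.3% called). All ratios of a fit share Snora78 as denominator, so the share called moves with Snora78 itself. SSC and ESCs at day 0 did not differ beyond their spread (0.086, 95% interval -0.57 to 0.74, adjusted p = 0.861, 54.5% called).

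RAW264.7 and NIH3T3 had indistinguishable Snora64 at this spread and unequal Snora78, and their ratio was 1.76-fold higher in RAW264.7 (log2 difference 0.82 ± 0.33 SE, adjusted p = 0.0296 by limma, 84.8% called). This call was lost without replicate 1 of NIH3T3 (0.62, adjusted p = 0.129), without replicate 1 of RAW264.7 (0.58, adjusted p = 0.139) and in a fit of all 7 groups (0.82, adjusted p = 0.1). Exact permutation tests of single pairs cannot go below 0.0571 for 4 against 3 samples or 0.1 for 3 against 3. They gave these smallest values in 5 of the 6 pairs of cell types, and 0.857 for SSC against ESCs at day 0.

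**Figure D4:**
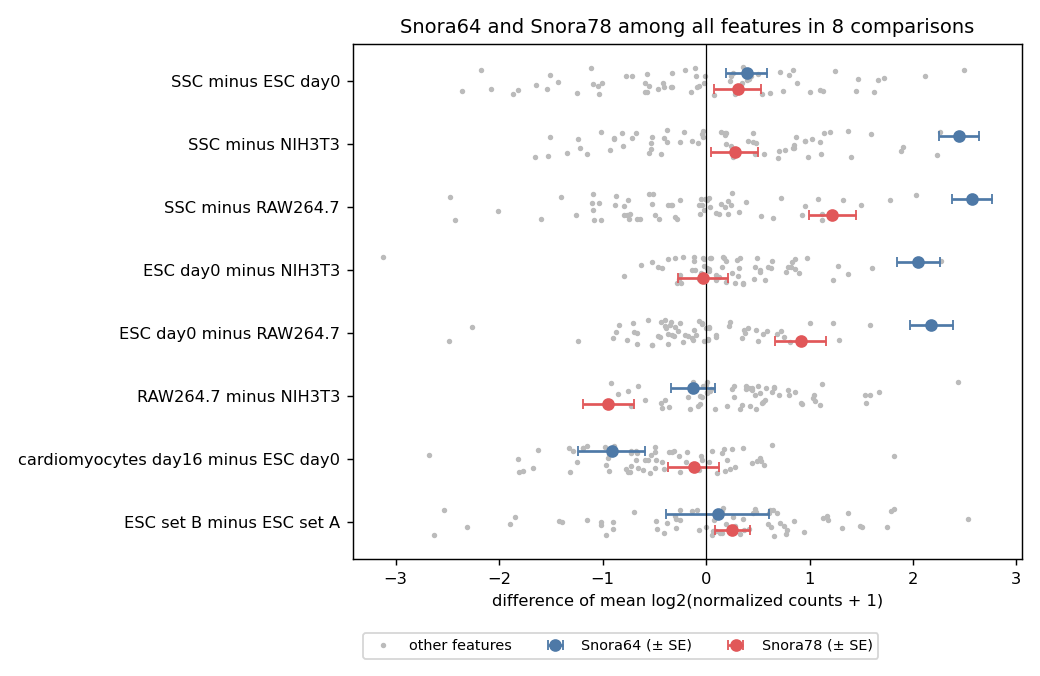
Difference of mean log2(normalized counts + 1) on the horizontal axis for 8 comparisons, with Snora64 and Snora78 as coloured points ± SE and every other feature as a grey dot. Snora64 is at or next to the right edge for SSC and day 0 ESCs against both lines (2.05 to 2.57), and Snora78 is at the left edge for RAW264.7 against NIH3T3 (-0.94).

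All 7 groups were then put in order in a single limma fit of 22 samples. On the log2 scale the Snora64 order was SSC, ESCs at day 0, set B, set A, cardiomyocytes, NIH3T3 and RAW264.7, from high to low. Only 1 pair of neighbours in that order differed, namely cardiomyocytes against NIH3T3 (log2 difference 1.14 ± 0.37 SE, adjusted p = 0.0208, 40.3% of features called in that pair). Of the 10 pairs that set NIH3T3 or RAW264.7 against another group, 10 were called for Snora64, where 44.6% of all feature and pair combinations were called. Among the other 5 groups 2 of 10 pairs were called, SSC against cardiomyocytes and ESCs at day 0 against cardiomyocytes, with a background of 48.7%. For Snora78 the order was SSC, set B, NIH3T3, ESCs at day 0, set A, cardiomyocytes and RAW264.7. The 6 pairs with RAW264.7 were all called in this fit (background 49.8%), with adjusted p-values of 0.00015 to 0.00694. None of the 15 pairs without RAW264.7 passed (0 of 15 in limma, lowest adjusted p = 0.105, background 44.8%), and none of them reached an unadjusted p under 0.05. For the ratio, 5 of the 6 pairs with NIH3T3 were called, all but that with RAW264.7. Of the 6 pairs with RAW264.7, 2 were called, those with SSC and ESCs at day 0. Among the other 5 groups 0 of 10 pairs passed (lowest adjusted p = 0.103 in limma). Of 66 ratios, 9 to 52 were called per pair with NIH3T3, 42 to 55 with RAW264.7 and 0 to 38 among the other 5 groups. In a fit without replicate 1 of set B and of the cardiomyocytes, chosen after seeing the data, set A stood above set B in Snora64 (set B minus set A -0.40, adjusted p = 0.197 by limma) and the rest of the order was the same. Snora64 was then called in 16 of 21 pairs, against 12 with all samples. The share of all features called was not counted for this fit. Its counts therefore have no background and cannot be read as particular to Snora64. Among the 5 groups other than the lines 6 of 10 pairs were called, which now took in SSC against each set, ESCs at day 0 against set B and cardiomyocytes against set A. Cardiomyocytes against NIH3T3 was again the only pair of neighbours called (0.77, adjusted p = 0.0163). For Snora78 the order and the 6 calls against RAW264.7 were as before.

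The next comparison asked how the pair changes as ESCs become cardiomyocytes. Snora64 was 1.88-fold lower in cardiomyocytes than in ESCs at day 0, which missed the threshold (log2 difference -0.91 ± 0.32 SE, 95% interval -1.69 to -0.13, adjusted p = 0.0704 by limma on these 6 samples and 72 features). Of all features 30.6% were called. The median feature was lower too (-0.51), so Snora64 was 0.40 below that shift. Without replicate 1 of the cardiomyocytes the difference was -1.28 and passed (adjusted p = 0.00571), and it passed in the fit of all 7 groups (adjusted p = 0.0441). Once the samples were centred on their median, Snora64 differed by -0.10, by -0.42 after mean centring, by -0.54 as a share of the total and by -0.059 after quantile normalization. The adjusted p-values were 0.327 after mean centring and 0.23 for the share. Snora64 stood at 1.30, 1.01 and 0.998 times the sample's median feature in cardiomyocytes, against 1.15, 1.06 and 1.11 times in ESCs at day 0.

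Snora78 did not differ beyond its spread in cardiomyocytes (log2 difference -0.12 ± 0.24 SE, 95% interval -0.71 to 0.46, adjusted p = 0.729 by limma). Its sign turned when samples were centred on the median (0.70) or mean (0.37), taken as shares of the total (0.25), quantile normalized (0.26), or fitted without replicate 1 of the day 0 ESCs (0.093), and none of these passed. It was -0.16 without replicate 1 of the cardiomyocytes (adjusted p = 0.635). The ratio was 1.73-fold lower in cardiomyocytes, which did not pass (log2 difference -0.79 ± 0.37 SE, adjusted p = 0.212 by limma, 12.7% of 71 ratios called; exact permutation p = 0.2 where 0.1 is the smallest possible). Without replicate 1 of the cardiomyocytes it was -1.11 and passed (adjusted p = 0.0483). In that replicate Snora64 was 1.09 above the mean of the other replicates on the log2 scale and Snora78 0.13 above, while its median feature had 11049 normalized counts, against 6829 and 6592 in replicates 2 and 4.

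ESC set B and set A did not differ in either member beyond their spread. Snora64 differed by 0.11 ± 0.50 SE on the log2 scale (95% interval -1.13 to 1.36, adjusted p = 0.842 by limma), where 45.8% of features were called. The sign turned without replicate 1 of set B (-0.40) and without replicate 1 of set A (-0.030). In replicate 1 of set B Snora64 was 1.55 above the mean of the other set B replicates on the log2 scale, and Snora78 was 0.31 below it. All 19 of its features beyond 2-fold were higher, and its median feature had 16815 normalized counts, against 8615 and 9709 in replicates 4 and 3. Snora78 differed by 0.25 ± 0.17 SE (95% interval -0.16 to 0.67, adjusted p = 0.282), and by -0.19 after quantile normalization. Snora78 differed by 0.36 without replicate 1 of set B (adjusted p = 0.129). For the ratio the difference was -0.14 ± 0.56 SE (adjusted p = 0.884 by limma, 25.4% of ratios called; exact permutation p = 0.9). It was -0.76 without replicate 1 of set B (adjusted p = 0.0668).

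A difference between the 2 experiments was tested on all 12 samples, as the cardiomyocyte difference minus set B against set A. This takes set B as the treated side, which the labels do not settle, and the opposite direction was not tested. Snora64 gave -1.02 ± 0.63 SE (95% interval -2.42 to 0.37, adjusted p = 0.244 by limma, 23.6% of features called) and Snora78 -0.38 ± 0.30 SE (adjusted p = 0.359). The Snora78 value turned to 0.29, 0.22, 0.067 and 0.49 after median, mean, total and quantile scaling. Over all features the 17 calls fell to 0 in limma under each of these scalings (8, 10, 15 and 8 at an unadjusted p under 0.05) and with the replicate number as a block (22 at an unadjusted p under 0.05). They were 31 with all 7 groups in the fit and 1 to 20 over samples left out, with 4 without replicate 1 of set B and 1 without replicate 2 of the day 0 ESCs or replicate 1 or 3 of set A. For the ratio the value was -0.65 ± 0.71 SE (adjusted p = 0.718), and 0 of 71 ratios were called by limma, with 7 at an unadjusted p under 0.05. Without replicate 1 of set B the values were -0.51 for Snora64, -0.48 for Snora78 and -0.028 for the ratio (adjusted p = 0.449, 0.263 and 0.991). Without replicate 1 of the cardiomyocytes they were -1.39, -0.42 and -0.97 (adjusted p = 0.0912, 0.357 and 0.564). With the sets taken in this direction, neither member passed the test of a difference between the experiments, and the interval for Snora64 reaches down to a fold of 0.187.

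The spread between replicates differed between the members by group. Pooled over groups, the SD of log2 values was 0.48 for Snora64 and 0.30 for Snora78, against a median of 0.27 over 67 features. These SDs were 0.29 and 0.31 without replicate 1 of set B and of the cardiomyocytes. Snora64 varied most in set B (SD 0.94) and cardiomyocytes (0.63), and least in ESCs at day 0 (0.026). Snora78 varied most in SSC (0.42), ESCs at day 0 (0.37) and NIH3T3 (0.33), and ranked second of 67 features by SD in both SSC and NIH3T3. Replicate 1 held the highest Snora78 value in each of these 3 groups. Deviations from the group means of the 2 members had Pearson's r = -0.077 over the 22 samples, with each sample's 67 features sharing library and normalization factor. With Snora64, Snora78 came in place 46 of 66 features by this measure, and the median feature had r = 0.29. With the sample's median feature the deviations had r = 0.56 for Snora64 and 0.53 for Snora78. Over the 20 samples without replicate 1 of set B and of the cardiomyocytes, r was 0.049 between the members, and with the median feature 0.23 for Snora64 and 0.74 for Snora78. The value of Snora64 with the median feature thus rests largely on those 2 samples.

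Across the 7 group means the members were more alike. Pearson's r of log2 levels between them was 0.71, which made Snora78 the second closest of 66 features to Snora64 and made Snora64 the third closest to Snora78. Median r with the other features was -0.025 for Snora64 and -0.16 for Snora78. Closest of all symbols to both members was Snora81, within the translation initiation factor gene Eif4a2, with r = 0.90 to Snora64 and 0.80 to Snora78. Its mean was 62812 ± 7887 normalized counts in SSC (SD, n = 4), 15826 ± 5085 in RAW264.7 and 20797 ± 2293 in NIH3T3 (SD, n = 3 each). The spread was wider in cardiomyocytes (42531 ± 19511), ESCs at day 0 (38956 ± 19645), set B (48509 ± 35889) and set A (34206 ± 15992; SD, n = 3 each). By these means cardiomyocytes lay above ESCs at day 0 in Snora81 and below them in Snora64. The third symbol for Snora64 was Snora41, within the elongation factor gene Eef1b2 (r = 0.65), and for Snora78 it was Snora65, within the ribosomal protein gene Rpl12 (r = 0.65). With samples centred on their median, r between the members was 0.68 over 7 means (place 5 of 66 for Snora64 and 7 for Snora78). After this centring Snora78 had r = 0.88 with Snora81 and 0.84 with Snora65. Snora64 had 0.89 with Snora81 and 0.68 with Snora41. Over 22 samples in place of 7 means, r between the members was 0.54 (place 8 for Snora64 and 3 for Snora78). Snora81 then had r = 0.81 to Snora64 and 0.44 to Snora78, Snora41 had 0.61 to Snora64, and Snora65 had 0.30 to Snora78. Over 7 means without replicate 1 of set B and of the cardiomyocytes, r between the members was 0.66 (place 3 for Snora64 and 4 for Snora78). Group means share their libraries, so these values are a description.

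The table holds 3 other pairs of snoRNAs within a common gene, which put the range of the Rps2 pair in context. The group mean ratio of Snora64 to Snora78 spanned 4.49-fold over 7 groups. Snora17 to Snora43 of Snhg7 spanned 4.05-fold, Snora2b to Snora34 of Kansl2 1.70-fold and Snora16a to Snora44 of Snhg12 1.43-fold. Of all 2211 pairs of features, 58.0% had a narrower range than Snora64 and Snora78, and the median pair spanned 3.90-fold. The pair thus kept its ratio no more closely than the median pair of features, as did the Snhg7 pair, while those of Kansl2 and Snhg12 were narrower than most. Within groups the SD of the log2 ratio was 0.59 for the Rps2 pair, wider than in 75.4% of pairs, against 0.35 for Snhg7, 0.23 for Kansl2 and 0.24 for Snhg12. It was 0.42 for the Rps2 pair without replicate 1 of set B and of the cardiomyocytes.

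**Figure D5:**
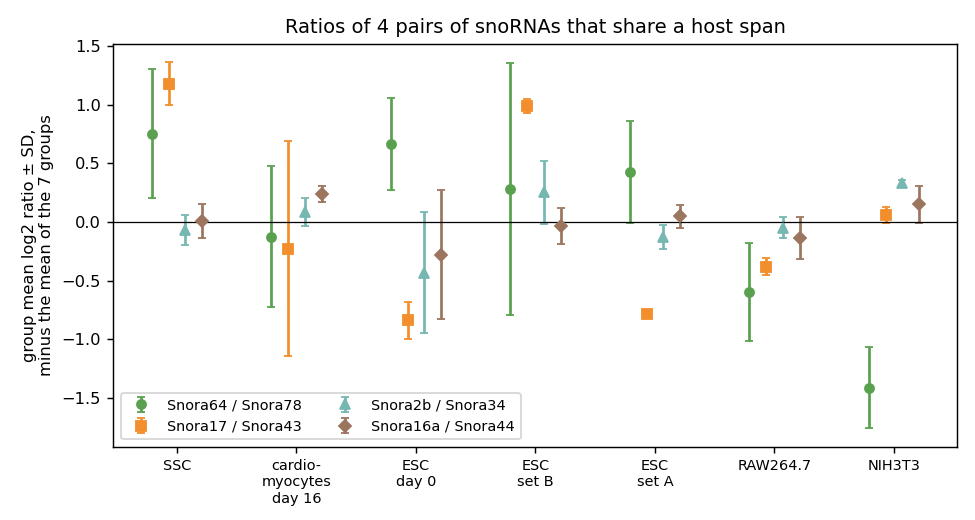
Group mean log2 ratio ± SD (n = 4 SSC, n = 3 in other groups), centred on the mean of the 7 groups, for 4 pairs of snoRNAs that share an annotated host span. The Snora64 to Snora78 ratio runs from high in SSC to low in NIH3T3 (4.49-fold), and the Kansl2 and Snhg12 pairs stay within 1.70-fold and 1.43-fold.

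Other snoRNAs within ribosomal protein genes (10 measured) and within Snhg genes (7 measured) are the classes of the hosts of the pair. In SSC against NIH3T3, 3 of the 10 ribosomal protein snoRNAs were higher and 2 lower, with a median log2 difference of 0.22, against 0.19 for all features, of which 41.8% were higher and 32.8% lower. They ran from Snora33 of Rps12 (-0.93, adjusted p = 0.000491 by limma) to Snora62 of Rpsa, another gene of the small subunit (0.85, adjusted p = 3.01e-05), and the value of 2.44 for Snora64 lay outside that range. In SSC against RAW264.7 none of the 10 was higher and 2 were lower (median 0.043, all features -0.069; 20.9% of all features higher and 41.8% lower). That split of 14 higher and 28 lower over all features became 24 and 24 after median centring, 23 and 27 after mean centring, 26 and 24 as shares of the total and 23 and 24 after quantile normalization. Of the ribosomal protein snoRNAs 5 or 6 were then higher and 2 lower, and of the Snhg snoRNAs 1 was higher and 4 to 6 lower. In ESCs at day 0 against RAW264.7, 0 were higher and 3 lower (median -0.22, all features -0.12; 19.4% of all features higher and 26.9% lower). As shares of the total, 12 of all features were higher and 27 lower there, against 13 and 18 as deposited. The Snhg class held 0 higher and 6 lower of 7 in SSC against NIH3T3 (median -0.67), where Snora78 had 0.28. It held 0 higher and 6 lower in SSC against RAW264.7 (median -0.64), where Snora78 was higher by 1.22. In ESCs at day 0 against RAW264.7, 2 of the 7 were higher and 0 lower (median 0.34), Snora74a of Snhg4 (0.81, adjusted p = 0.000433 by limma) and Snora73a of Snhg3 (0.68, adjusted p = 0.00217), where Snora78 had 0.92. In RAW264.7 against NIH3T3, 3 of the 10 ribosomal protein snoRNAs were higher and 0 lower, where 41.8% of all features were higher and 11.9% lower. That split of 28 and 8 became 18 and 13 after median centring, 17 and 16 after mean centring and 16 and 11 after quantile normalization, where 1 or 2 of the 10 were higher and 0 to 2 lower. As shares of the total the split was 26 and 10, with 3 of the 10 higher and 0 lower. As deposited, 1 of the 7 Snhg snoRNAs was higher and 2 were lower, Snora74a of Snhg4 (-0.91, adjusted p = 0.000127 by limma) and Snora73a of Snhg3 (-0.59, adjusted p = 0.00401).

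In cardiomyocytes against ESCs at day 0, 0 of the 10 ribosomal protein snoRNAs were higher and 3 lower (median -0.50, all features -0.51; 1.39% of all features higher and 29.2% lower). The lowest were Snora33 (-1.67, adjusted p = 0.0327 by limma) and Snora3 of Rpl27a (-1.33, adjusted p = 0.0324), and Snora64 at -0.91 lay within the range of the class. The Snhg class had 0 higher and 5 lower of 7 (median -0.68), led by Snora44 of Snhg12 (-1.19, adjusted p = 0.026) and Snora24 of Snhg8 (-1.19, adjusted p = 0.026). Under each of the 4 other scalings 0 members of either class were called by limma. The class medians then ran from -0.12 to 0.32 for the ribosomal protein hosts and from -0.30 to 0.14 for the Snhg hosts, so their direction depends on the scaling. In set B against set A the ribosomal protein class had 3 higher and 2 lower (median 0.28, all features 0.16; 29.2% of all features higher and 16.7% lower) and the Snhg class 0 higher and 3 lower (median -0.40). The 21 higher and 12 lower over all features became 12 and 13 after mean centring and 10 and 10 after quantile normalization, where 0 of the 10 ribosomal protein snoRNAs were higher. The split was 17 and 10 after median centring and 21 and 14 as shares of the total, where 2 of the 10 were higher and 2 lower. As deposited, Snora43 of Snhg7 had the largest change of the Snhg class (-1.84, adjusted p = 0.00013 by limma).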

How the data were processed

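The deposited table holds 72 features as a signal that is never negative, here called normalized counts. How the authors made that signal (software, normalization, background, genome build) is not stated in the labels or headers. Per the labels' protocols, RNA was a Trizol extract, cleared of DNA and cleaned on spin columns. Tests used log2(value + 1) in limma 3.58.1 under R 4.3.3 (two-sided, Benjamini-Hochberg over all features tested, threshold 0.05), checked on simulated data. The simulated features had independent noise, with no factor shared within a sample and no sample that stood apart. That check therefore does not cover calls in data with such factors or samples. The 4 cell types shared 1 fit of 13 samples and 67 features without blanks. Each ESC experiment was fitted on its own 6 samples. Ratios were tested by limma on log2 ratios to Snora78 and by exact permutation (scipy 1.17.1). A fold change is on the log2(value + 1) scale. Named besides the members are the 3 symbols most like each over 7 group means, other same-host pairs, and the 2 highest and 2 lowest of each host list. The members and lists were chosen with earlier results of these data known. Probe IDs were matched to GRCm38.p6 RefSeq. Near-identical snoRNA copies may share probe signal. Alternatives covered scaling, pseudocount, filter, samples in the fit, replicate block and leaving out each sample.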

Additional observations from a re-analysis of the deposited data

How the results depend on the processing

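Calls for Snora64 and for the ratio across the 4 cell types, and for both against NIH3T3 and RAW264.7 in SSC and ESCs at day 0, kept direction and call under all alternatives run, as did Snora78 across the 4 types and against RAW264.7. In cardiomyocytes against ESCs at day 0, 22 features were called, against 38 with all 7 groups, 6 after median centring (5 higher and 1 lower, against 1 higher and 21 lower), 3 after quantile normalization, and 0 after mean centring or as shares of the total in limma (22 and 23 at an unadjusted p under 0.05). Leaving out 1 sample gave 0 to 34 calls there (21 to 39 at an unadjusted p under 0.05), with 34 without replicate 1 of the cardiomyocytes, and 17 to 36 between the sets, where 33 were called; quantile normalization left 20. Snora64 in cardiomyocytes ran from -1.28 to -0.71 over samples left out, passing at -1.28, and passed at -0.91 with all 7 groups. The ratio there ran from -1.11, which passed, to -0.52 over samples left out, and was -0.32 after quantile normalization. Snora78 there ran from -0.25 to 0.093, and was 0.70, 0.37, 0.25 and 0.26 after median, mean, total and quantile scaling. Between the sets Snora64 ran from -0.40 to 0.51 and the ratio from -0.76 to 0.20 over samples left out; after quantile normalization the ratio was 0.39 and Snora78 -0.19. The difference of both effects in Snora78 was 0.29, 0.22, 0.067 and 0.49 under those 4 scalings. Smaller turns of sign were Snora64 in RAW264.7 against NIH3T3 (-0.41 to 0.078 over samples left out), Snora78 in SSC against NIH3T3 (-0.19, quantile), Snora78 in ESCs at day 0 against NIH3T3 (-0.24 to 0.14), and the ratio in SSC against ESCs at day 0 (-0.14 to 0.34, and -0.17 with SSC samples 2, 3 and 4 averaged). The cause of these changes was not tested.

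The r of the members' deviations within groups turned to 0.049 without replicate 1 of set B and of the cardiomyocytes, chosen after seeing the data. Deviations of same-numbered samples had r of -0.24, -0.27 and 0.14 in the cardiomyocyte experiment and -0.36, 0.33 and -0.35 between the sets. Over the 6 pairs of cell types r ran from -0.46 to 0.60, and no pair with 3 shared numbers had all above 0.1, so the numbers were not taken to pair the samples; ESCs at day 0 share 2 numbers with each line (0.24 to 0.57). With the replicate number as a block the calls fell to 8 in cardiomyocytes and to 14 between the sets (15 with the numbers of the titles), and Snora78 in ESCs at day 0 against NIH3T3 was 0.077; no call on a member changed. Count models (edgeR, DESeq2) were not run, since too few values are low enough to meet the rule used here for treating a signal as recovered reads, although all are whole multiples of a step. Group sizes of 3 and 4 limit what can be told apart, and no reference RNA in the table fixes the scale of a sample.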
